A study of Mus musculus with 6 samples.

Results

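The mouse mitochondrial genome encodes 13 proteins, and 6 of them are subunits of respiratory complexes III, IV and V: CYTB, COX1, COX2, COX3, ATP6 and ATP8. The members were chosen by symbol, so that a gene entered when its row of the expression table carried one of these 6 names. This set was chosen with earlier results of these data known. All 6 were found among the 35345 genes whose rows could be read. Their RNA was measured in bone marrow-derived macrophages (BMDMs) from C57BL/6 mice, which are marrow progenitors differentiated in culture for 7 days with M-CSF, the macrophage growth factor, at 10 ng/ml. There were 3 libraries of untreated BMDMs (Ctrl) and 3 libraries of BMDMs taken 12 h after stimulation with zoledronic acid (ZA), a nitrogen-containing bisphosphonate that inhibits farnesyl diphosphate synthase and is given against bone resorption. The labels set the groups apart by ZA alone and name no transgene or deleted allele for either. The mice of this strain were obtained as females of 6 weeks, while the age and sex of the marrow donors and the ZA concentration of these libraries were not given in the sources used here. The study describes its experiments in general as independently repeated, but neither it nor the labels say whether these libraries came from separate animals or cultures, so the p-values measure the spread between these libraries, which may be technical.

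Mitochondrial DNA is transcribed from a few start points into long RNAs that run through many genes. The tRNAs that lie between most of the genes are cut out, which frees the individual mRNAs, and these receive short poly(A) tails. The respiratory chain and ATP synthase are built from subunits of both genomes. CYTB, or cytochrome b, is the only subunit of complex III that mitochondria make themselves. COX1, COX2 and COX3 form the catalytic core of cytochrome c oxidase, the complex that passes electrons to oxygen. ATP6 forms part of the proton path of ATP synthase, and ATP8 is a small subunit of its membrane part. In macrophages the balance between respiration and glycolysis differs between activation states, and the study sequenced RNA to ask what ZA does to these cells.

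Several of these genes share sequence with other genes, which bears on what their values can mean. ATP8 and ATP6 overlap on the mitochondrial genome: in GENCODE annotation on build GRCm38, ATP8 is the 204 bases of chrM:7766-7969 and ATP6 the 681 bases of chrM:7927-8607, both on the plus strand. The end of ATP8 and the start of ATP6 are shown because the 43 bases in capitals belong to both genes, so that a read within them has 2 possible origins (chrM:7897-7969 and chrM:7927-7999, plus strand, 5′ to 3′).
ATP8: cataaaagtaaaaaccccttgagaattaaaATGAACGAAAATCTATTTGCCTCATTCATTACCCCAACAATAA
ATP6: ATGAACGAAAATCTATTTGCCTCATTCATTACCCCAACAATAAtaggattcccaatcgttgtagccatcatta

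Other members have copies in nuclear DNA. COX3 lies at chrM:8607-9390 and has 784 bases, of which 783 are identical, without a gap, to the annotated nuclear transcript Gm28437 on the minus strand of chr1:24613189-24613971. The 3′ ends of both are shown because they illustrate how little separates the gene from its copy. Capitals mark the shared run, and the last base of COX3, in lower case, lies beyond the end of the annotated copy (COX3 from chrM:9331-9390, plus strand, and the copy from chr1:24613189-24613247, minus strand).
COX3: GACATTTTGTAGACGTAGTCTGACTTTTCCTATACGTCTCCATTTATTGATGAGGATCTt
Gm28437: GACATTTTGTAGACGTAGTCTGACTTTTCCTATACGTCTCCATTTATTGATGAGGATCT

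To count this overlap, each gene was divided into all its stretches of 150 bases, the read length, and each stretch was looked for on both strands of all nuclear transcripts of the same annotation. For COX3, 634 of 635 stretches (99.8%) occurred in a nuclear transcript. The share was 99.4% for COX2 (532 of 535, chrM:7013-7696, copy Gm28661) and 99.4% for ATP6 (529 of 532, copy Gm10925). In COX1 it was 23.6% (330 of 1396, chrM:5328-6872), all toward the 3′ end of the gene, where bases 1067 to 1545 match Gm29216. CYTB (chrM:14145-15288) had 0 of 995 stretches in a nuclear transcript and ATP8 had 0 of 55. The copies of COX1, COX2, ATP6 and COX3 stand in the same order and at exactly the same spacing on chromosome 1 as the genes do on the mitochondrial genome. Together with the copies of ND3, ND4L and ND4 they lie within 4663 bases at 24611535 to 24616197. ATP8 lies between COX2 and ATP6, within the span that these copies bracket, but no transcript is annotated over most of it, so its 0 describes the annotation and not the genome. Levels of the copies themselves were not analysed here. The files use another build, mm9 by the submitters' processing notes, and how reads with several possible origins were counted is not given in the sources used here. The lengths that the values themselves imply for all 6 members equal the annotated lengths of the mitochondrial genes.

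The authors deposited FPKM values, the number of sequenced fragments of a gene divided by its length and by the total of the library. Library totals were inferred from the values themselves and lay between 41230600 and 42155808 fragments. All fragment numbers given here rest on these inferred totals. FPKM is per length, so the levels of genes of unlike length are on one scale, but for COX2, COX3 and ATP6 the deposited values and ranks depend on how reads shared with the nuclear copies were counted, which is unknown. COX1 had the highest level, with a mean of 7017 FPKM over the 6 libraries and rank 7 of 35345 genes. CYTB followed at 1748 FPKM (rank 21), then COX2 at 41.8 (rank 1339), COX3 at 25.4 (rank 2235), ATP6 at 21.7 (rank 2540) and ATP8 at 3.35 (rank 7616). COX1, CYTB, COX2 and ATP8 kept their places in the order in both groups and did not overlap with a neighbour. COX3 and ATP6 overlapped with each other in each group, with means of 35.2 and 25.9 FPKM in Ctrl and 15.7 and 17.5 FPKM in ZA.

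Beside the share of copied sequence, the members fell into separate ranges of level. The 3 members with over 99% of their stretches in nuclear transcripts had mean levels between 21.7 and 41.8 FPKM, while COX1 and CYTB, with 23.6% and 0%, had 7017 and 1748 FPKM. Among the mitochondrial complex I genes, ND3 (97%) and ND4L (98%) had means of 8.53 and 6.93 FPKM and ND4 (59.2%) had 712 FPKM. ND1, ND2 and ND5, with no such stretch, had 1982, 978 and 1165 FPKM. ND6, the gene on the other strand, had no shared stretch and a mean of 1.74 FPKM. ATP8, at 3.35 FPKM, cannot be placed in this comparison, because its last 43 bases are also the first bases of ATP6, which the copy Gm10925 holds, and the rest of it lies in the unannotated part of the copied span. These are 13 genes of one genome in the same 6 libraries, and the part of the copies in the levels was not tested.

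**Figure D1:**
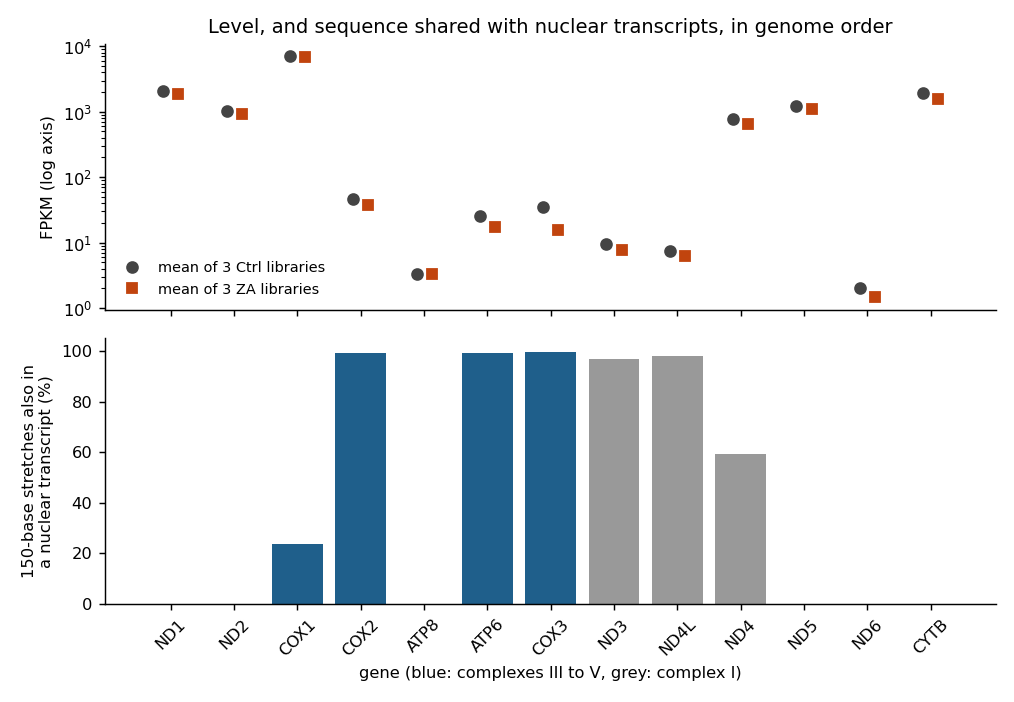
The upper panel plots the mean FPKM of 3 Ctrl (circles) and 3 ZA (squares) libraries on a log axis for the 13 mitochondrially encoded genes in genome order, and the lower panel the percentage of each gene's 150-base stretches that also occur in a nuclear transcript. COX2, ATP6 and COX3 have bars above 99% and mean levels of 21.7 to 41.8 FPKM, COX1 has 23.6% and 7017 FPKM, and ATP8 and ND6 have bars at 0 and means of 3.35 and 1.74 FPKM, where the 0 of ATP8 reflects the annotated transcripts alone.

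After ZA, 3 of the 6 members fell: CYTB, COX2 and COX3. COX3 fell the most, by 55.4% of its mean level, while CYTB and COX2 fell by 18.6% and 17.6%. For COX2, COX3 and ATP6 the changes given here are those of the deposited values, and the part of the nuclear copies in them was not tested. The test was limma on log2(FPKM + 1) across the 9800 genes that averaged 1 FPKM or more over the libraries, two-sided, with Benjamini-Hochberg adjustment and a threshold of 0.05. At that threshold 0.367% of all genes tested were called in either direction (36 genes), 0.163% were called as lower in ZA (16 genes) and 0.204% as higher (20 genes). All 6 members had a lower mean in ZA, against 43.1% of all genes tested. For COX1 and ATP8 the log2 fold changes were only -0.03 and -0.02 (limma adjusted p 0.691 and 0.97). The genes are transcribed together into long RNAs, so their directions are not separate observations. The members were also chosen with earlier results of these data known. The members' median log2 fold change was -0.29 beside 0.01 over all genes tested.

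CYTB, the mitochondrial subunit of complex III, was at 1977, 1905 and 1901 FPKM in Ctrl replicates 1 to 3 and at 1620, 1613 and 1472 FPKM in ZA replicates 1 to 3. Every ZA library was below every Ctrl library. The means were 1928 ± 42.8 and 1569 ± 83.3 FPKM (SD, n = 3 each), 18.6% lower in ZA. The log2 fold change was -0.30 (SE 0.038, 95% interval -0.39 to -0.21) with a limma adjusted p of 0.0433. That p is close to the threshold and did not pass it without Ctrl replicate 1 (limma adjusted p 0.115), Ctrl replicate 2 (0.189), Ctrl replicate 3 (0.0857) or ZA replicate 2 (0.14), though the log2 fold change stayed between -0.32 and -0.25 whichever library was left out.

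Complex IV held the largest and one of the smallest differences of the members. COX1, which carries the heme and copper site where oxygen is reduced, had 7194, 6948 and 7145 FPKM in Ctrl and 7230, 6824 and 6761 FPKM in ZA. The groups overlapped, and the highest library was a ZA library. The log2 fold change of COX1 was -0.03 (SE 0.029, 95% interval -0.10 to 0.03, limma adjusted p 0.691), which places any change within those bounds rather than showing that there was none.

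COX2, which takes electrons from cytochrome c, had 45.4, 45.05 and 47.1 FPKM in Ctrl and 38.4, 35.7 and 39.3 FPKM in ZA. The groups did not overlap. Its means of 45.9 ± 1.13 and 37.8 ± 1.91 FPKM (SD, n = 3 each) gave a log2 fold change of -0.27 (SE 0.039, 95% interval -0.36 to -0.18, limma adjusted p 0.0487). This p was the closest to the threshold among the called members and passed in no analysis with 1 library left out: it was 0.142, 0.2 and 0.106 without Ctrl replicates 1, 2 and 3, and 0.052, 0.14 and 0.0913 without ZA replicates 1, 2 and 3 by limma. CYTB and COX2 also missed the threshold in the limma fit with no filter on low values (adjusted p 0.23 and 0.227) and in that with a variance prior without a trend (0.0995 and 0.111).

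COX3, the remaining core subunit, which has no redox centre, had 40.5, 32.4 and 32.6 FPKM in Ctrl and 16.1, 15.3 and 15.6 FPKM in ZA. Every ZA library lay far below every Ctrl library, and the ZA libraries were close to one another. The mean was 35.2 ± 4.61 FPKM in Ctrl and 15.7 ± 0.422 FPKM in ZA (SD, n = 3 each), which is 55.4% lower. The log2 fold change was -1.11 (SE 0.077, 95% interval -1.29 to -0.93, limma adjusted p 0.00449), and -1.11 was also the lowest value of any gene tested. Leaving out single libraries moved it between -1.16 and -1.01, and the adjusted p rose above the threshold without ZA replicate 2, to 0.0817. It also did so in the limma fit with no filter on low values, where the adjusted p was 0.15 at the same log2 fold change. In the 3 Ctrl libraries the values rest on 1322, 1055 and 1068 fragments, and in the 3 ZA libraries on 521, 498 and 517. With 99.8% of its stretches also in a nuclear transcript, which gene these fragments came from is not known.

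Neither gene of ATP synthase passed the test. ATP6 had 26.2, 17.7 and 33.7 FPKM in Ctrl and 16.6, 16.1 and 19.99 FPKM in ZA. The Ctrl libraries were spread widely, and Ctrl replicate 2 lay within the ZA range. The means were 25.9 ± 8.02 and 17.5 ± 2.14 FPKM (SD, n = 3 each), and the log2 fold change of -0.50 (SE 0.20, 95% interval -0.94 to -0.05) had a limma adjusted p of 0.36 with an unadjusted p of 0.0344. Without Ctrl replicate 3 the log2 fold change was -0.29 and without Ctrl replicate 2 it was -0.73. At an unadjusted p under 0.05, 4.85% of all genes tested were lower in ZA.

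ATP8, whose reading frame overlaps that of ATP6, had 3.76, 2.71 and 3.64 FPKM in Ctrl and 3.09, 2.71 and 4.19 FPKM in ZA, from 23 to 36 fragments a library. The groups overlapped throughout. Its log2 fold change was -0.02 (SE 0.13, 95% interval -0.33 to 0.29, limma adjusted p 0.97), and at this depth a difference within that interval was not detectable.

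**Figure D2:**
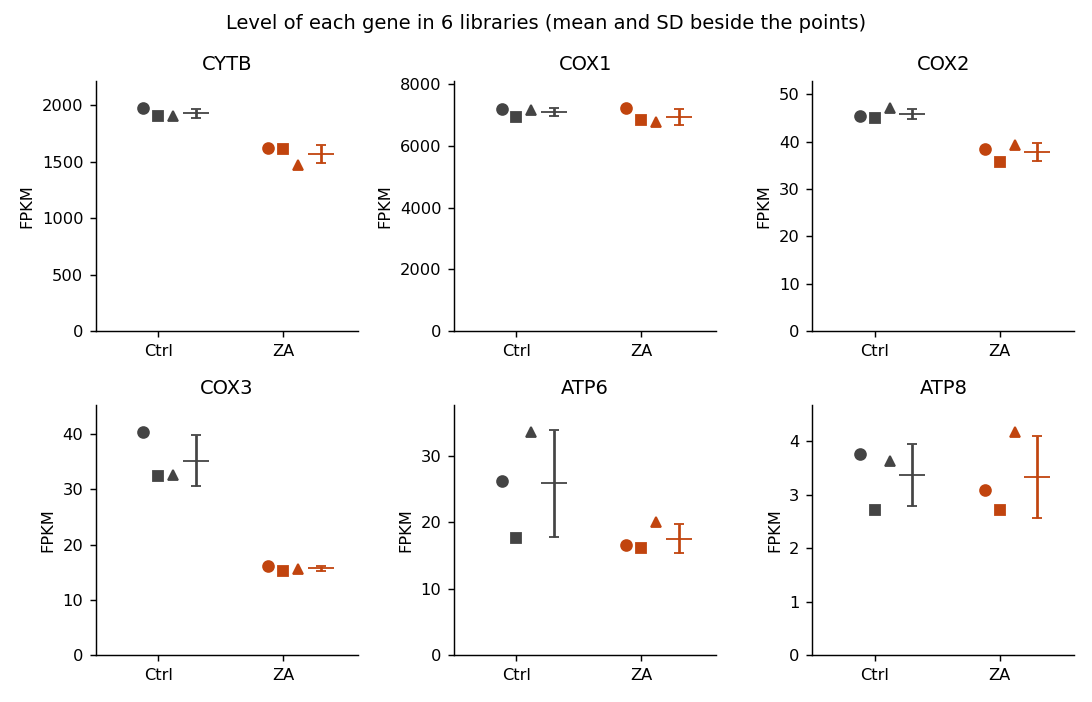
Each panel plots the FPKM of one gene in 3 Ctrl and 3 ZA libraries on a linear axis from 0 (circle, square and triangle for replicates 1, 2 and 3), with the mean and SD beside the points. CYTB, COX2 and COX3 are lower in every ZA library than in any Ctrl library, whereas COX1, ATP6 and ATP8 overlap.

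The groups did not overlap for CYTB, COX2 and COX3, lower in ZA each time, and 6.76% of all genes tested had every ZA library below every Ctrl library. The 7 mitochondrial genes of complex I gave a background from the same genome. All 7 had lower means in ZA, with log2 fold changes between -0.29 and -0.18 and a median of -0.20. ND2 passed the test (log2 fold change -0.19, limma adjusted p 0.0453) and ND1 did not (-0.18, limma adjusted p 0.0574), while 5 of the 7 had an unadjusted p under 0.05. For 4 of the 7 every ZA library was below every Ctrl library, beside 3 of the 6 members. Voom on the recovered fragments called 4 of the 7 and 3 of the 6 members as lower, beside 60 of all 9800 genes tested. CYTB and COX2 lie at or near the lower edge of this range, COX3 and ATP6 lie below it, and COX1 and ATP8 lie above it.

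**Figure D3:**
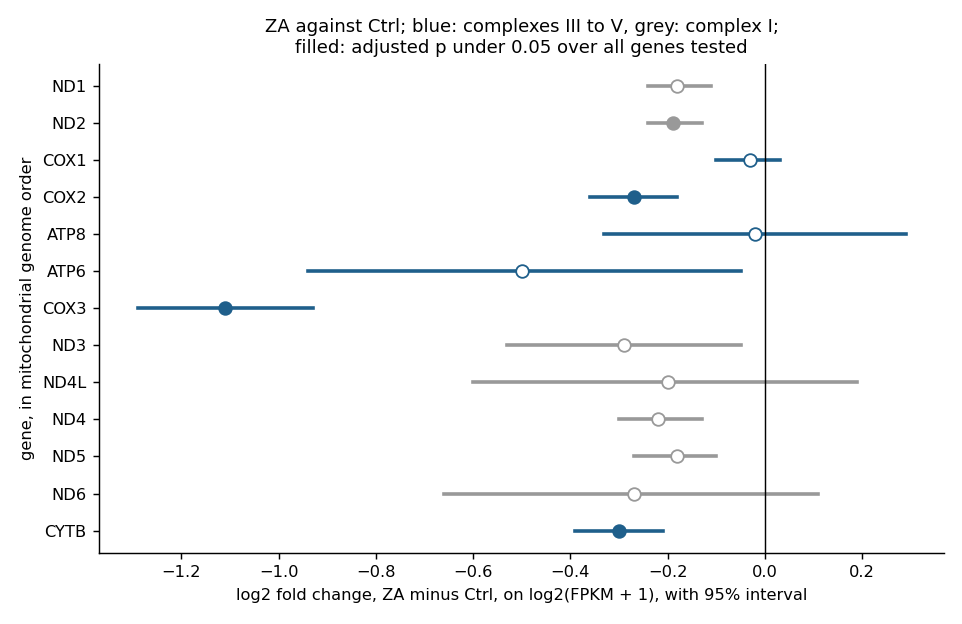
Points give the log2 fold change (ZA minus Ctrl, log2(FPKM + 1) scale) and lines the 95% interval of the 13 mitochondrially encoded genes in genome order, blue for complexes III to V and grey for complex I, filled where the adjusted p over 9800 genes was under 0.05. COX3 stands apart at -1.11, its neighbours ATP6 and ND3 have intervals from -0.94 to -0.05 and from -0.53 to -0.05, and COX1 and ATP8 are near 0.

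The lower levels were also compared within the mitochondrial RNA, which removes the library total from the calculation. How reads shared with nuclear copies were counted is unknown for COX2, COX3, ATP6, ND3, ND4L and parts of COX1 and ND4. The summed fragments depend on it, so the shares describe the deposited values and not the make-up of mitochondrial mRNA. Fragments of the 13 mitochondrially encoded protein genes numbered between 804064 and 834112 in Ctrl and between 741001 and 776296 in ZA. The 6 members together made up 1.30% to 1.35% of all fragments in Ctrl and 1.22% to 1.31% in ZA, and 82.6% to 85.7% of the members' fragments belonged to COX1.

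COX1 took 55.5%, 55.5% and 56.3% of the mitochondrial mRNA fragments in Ctrl and 59.3%, 58.0% and 59.4% in ZA. Its share was higher in all ZA libraries, by 3.14 percentage points on average, although its level overlapped between the groups. The share of CYTB was lower in all ZA libraries, with 11.3%, 11.3% and 11.1% in Ctrl and 9.85%, 10.1% and 9.58% in ZA. COX3 made up 0.159%, 0.131% and 0.130% in Ctrl and 0.0671%, 0.0658% and 0.0698% in ZA, and COX2 had means of 0.160% and 0.142%, again with no overlap. Shares of a whole depend on each other, so a higher share of COX1 and lower shares of other genes are not separate observations. An exact two-sided permutation test of each share gave p = 0.1 for CYTB, COX1, COX2 and COX3, which is the smallest p that 3 against 3 libraries allow, 0.2 for ATP6 and 0.8 for ATP8 (Benjamini-Hochberg adjusted over the 6 members 0.15, 0.15, 0.15, 0.15, 0.24 and 0.8). The design cannot reach a p under 0.05 here.

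**Figure D4:**
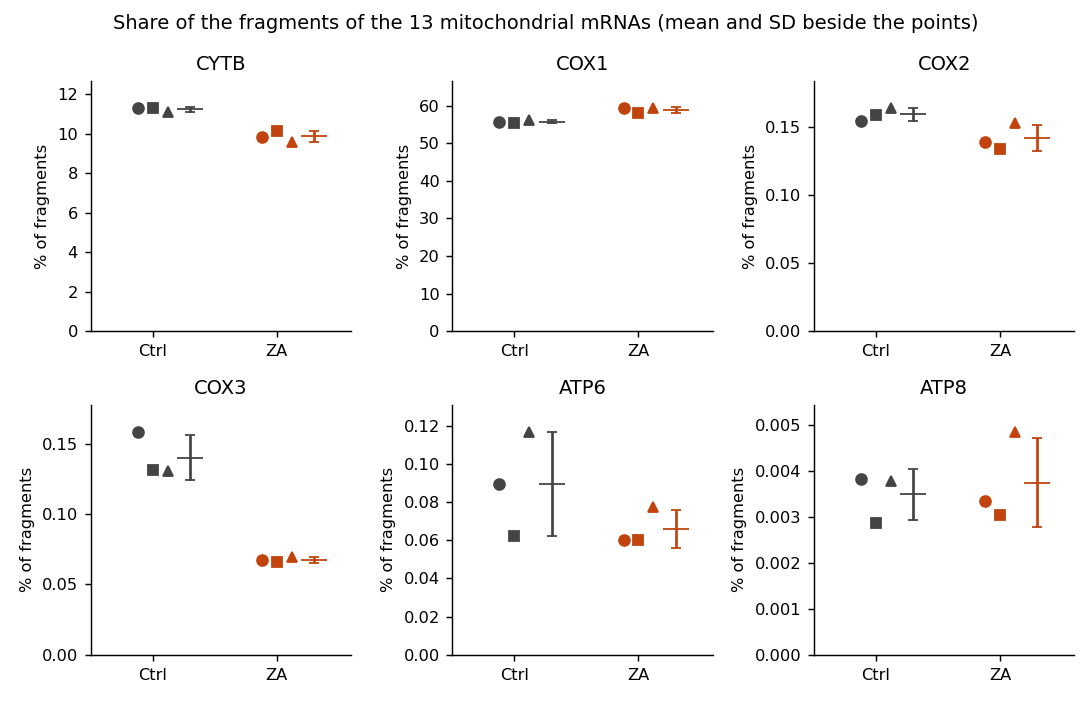
Each panel plots the percentage of the counted fragments of all 13 mitochondrially encoded protein genes that belonged to one gene in 3 Ctrl and 3 ZA libraries. The mean and SD stand beside the points, and axes start from 0. The counting of reads shared with nuclear copies is unknown and bears on every share. COX1 is higher in every ZA library (58.0% to 59.4% against 55.5% to 56.3%), CYTB, COX2 and COX3 are lower in every ZA library, and ATP6 and ATP8 overlap.

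COX3, chosen with its values known, was then set against the other 5 members together as a description. COX1 made up 82.6% to 85.7% of the members' fragments, so this ratio largely restates the fall of COX3 itself. The log2 ratio of its fragments to theirs stood at -8.73, -9.00 and -9.02 in the Ctrl libraries and at -10.01, -10.02 and -9.95 in the ZA libraries, a difference of -1.08 with no overlap (exact two-sided permutation test, p = 0.1, the smallest possible). The FPKM ratio of COX3 to COX2, a pair with nearly complete nuclear copies each, ran from 0.692 to 0.892 over the Ctrl libraries and from 0.398 to 0.428 over the ZA libraries. Against ATP6, which ends at the base where COX3 begins, the ratio came to 1.54, 1.83 and 0.968 for Ctrl and to 0.973, 0.951 and 0.782 for ZA, so these groups overlapped. COX1 stood at 3.64, 3.65 and 3.76 times the level of CYTB in Ctrl and at 4.46, 4.23 and 4.59 times in ZA. The FPKM ratios of COX3 to COX2, of COX3 to ATP6 and of COX1 to CYTB were chosen after the values were seen and carry no test.

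The reliability of the values differed between members. Counting error alone, taken from the mean number of fragments, would give COX1 and CYTB a spread between libraries of 0.148% to 0.366% of the mean, and the measured SDs were 1.84% to 5.31% of the mean. For COX2 the SD was 2.46% of the mean in Ctrl and 5.04% in ZA beside counting errors of 2.77% and 3.05%. COX3 varied by 13.1% in Ctrl, where counting error is 2.95%, and by 2.69% in ZA, where it is 4.42%. ATP6 varied by 31.0% in Ctrl against a counting error of 3.69%, with 455 to 958 fragments a library. ATP8, at 17% and 23% of the mean, varied about as much as its counting errors of 18.7% and 18.8%. Fragments were counted without molecular identifiers as far as the sources tell, and these figures cover counting error only.

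**Figure D5:**
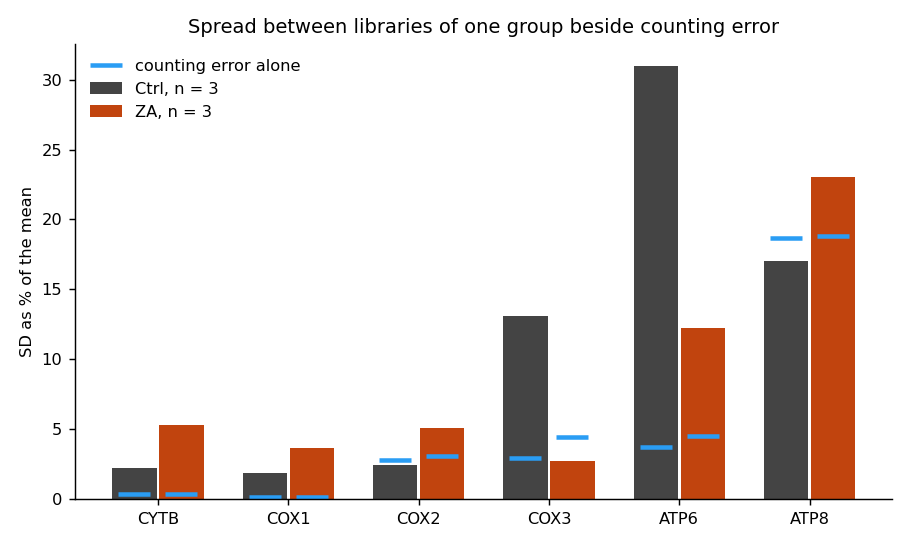
Bars give the SD between the 3 libraries of a group as a percentage of the mean FPKM, and blue marks the spread that counting error alone would give. ATP6 in Ctrl (31.0% against 3.69%) and COX3 in Ctrl (13.1% against 2.95%) exceed counting error the most in percentage points, and ATP8 is close to it in both groups.

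The nuclear genes that work with the members were then examined, in lists of subunits, assembly factors and mitochondrial RNA and DNA factors. In none of these 6 lists did a gene pass the limma test at an adjusted p under 0.05 in either direction. At an unadjusted p under 0.05, each list held 1 or 2 genes that were higher in ZA and 0 that were lower. Of all genes tested, 7.5% were higher and 4.85% lower at that threshold. With 9 to 26 tested genes in a list, these counts are about what the share of higher genes over all genes tested would give. Among the 9 nuclear subunits of complex III, 6 had lower and 3 higher means, 1 had an unadjusted p under 0.05, and the median log2 fold change was -0.0038. Uqcrfs1, the Rieske iron-sulfur subunit, was at 55.5 ± 1.06 FPKM in Ctrl and 59.0 ± 0.751 FPKM in ZA (SD, n = 3 each, limma adjusted p 0.221), and Uqcrq, a small subunit, at 29.3 ± 1.29 and 27.8 ± 0.565 FPKM (limma adjusted p 0.475).

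For complex IV, all 13 nuclear genes were tested, 9 had lower and 4 higher means, 1 had an unadjusted p under 0.05, and the median log2 fold change was -0.005. Their values lay between -0.07 and 0.06, beside the -1.11 of COX3, which depends on how reads shared with its nuclear copy were counted. Cox7a2l was at 207 ± 0.752 and 217 ± 2.52 FPKM (limma adjusted p 0.257), and Cox7b at 60.6 ± 1.44 and 59.5 ± 3.51 FPKM (limma adjusted p 0.826). For ATP synthase, 16 of 18 nuclear genes had lower means in ZA, but the median log2 fold change was only -0.029 and the range -0.11 to 0.09, and 1 gene had an unadjusted p under 0.05. Atp5g2 and Atp5g1, which encode the same proton-carrying c subunit, pointed in opposite directions at 0.09 and -0.09 (limma adjusted p 0.258 and 0.405).

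Of the 30 assembly factors of complexes III to V, 26 were tested, with 15 higher, 11 lower and a median of 0.011, and 2 had an unadjusted p under 0.05. Atpaf1, a chaperone of ATP synthase assembly, had the largest statistic, 3.61 ± 0.146 FPKM in Ctrl and 4.36 ± 0.346 FPKM in ZA (limma adjusted p 0.177), followed by Surf1, a factor of COX1 maturation (26.6 ± 0.637 and 28.0 ± 0.184 FPKM, limma adjusted p 0.351). Among genes of mitochondrial transcription and RNA processing, 25 of 28 were tested, 17 had higher and 8 lower means, 2 had an unadjusted p under 0.05, and the median was 0.038. Mterf4, which binds mitochondrial rRNA in ribosome assembly, was at 5.98 ± 0.307 and 7.17 ± 0.101 FPKM (log2 fold change 0.23, limma adjusted p 0.0785). Rexo2, an exonuclease of short RNA, was at 41.6 ± 1.38 and 44.0 ± 0.375 FPKM (limma adjusted p 0.333). All 9 genes of mitochondrial DNA maintenance were tested, 7 of them with higher means, 1 with an unadjusted p under 0.05, and the median was 0.025. Rrm2b and Dguok, which supply deoxynucleotides for that DNA, had log2 fold changes of 0.16 and 0.10 (limma adjusted p 0.304 and 0.405). The lowest log2 fold change of any nuclear gene in these lists was -0.16, and voom on the recovered fragments called none of them either.

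Outside the mitochondrial genome, the profile over the 6 libraries most like the mean profile of the members was that of Tanc1 (Pearson r = 0.994 over 6 libraries), followed by Scgb1a1 (0.983), Mix23 (0.975), Mafk (0.974) and Spcs2 (0.974). None of the 5 passed the limma test between the groups, with log2 fold changes from -0.37 for Scgb1a1 to -0.05 for Tanc1. With 9787 genes compared over 6 points, 90 reached r over 0.9. The members themselves correlated with their own mean at 0.932 (COX2), 0.906 (COX3), 0.877 (ATP6), 0.829 (CYTB), 0.660 (COX1) and 0.424 (ATP8), and each is itself part of that mean. The mean profile stood at 0.91, 0.04 and 0.90 SD for Ctrl and at -0.37, -0.98 and -0.49 SD for ZA, and Ctrl replicate 2 was the Ctrl library nearest to ZA.

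The label of macrophage was checked against marker genes. All 8 macrophage markers were present, with mean levels from 24.0 to 22699 FPKM, and their summed level was 23609 to 27519 FPKM in Ctrl and 24497 to 28005 in ZA. Of these 8, only 1 was lower on average in ZA, beside 43.1% of all genes tested. B and T cell markers summed to at most 0.773 and 0.291 FPKM in any library, erythroid markers to at most 2.66 and osteoclast markers to between 38.6 and 46.9. Neutrophil and progenitor markers summed to 34.6 to 49.7 FPKM in Ctrl and 30.8 to 35.9 in ZA, with 8 of 9 lower on average in ZA and Ly6g, the defining neutrophil marker, at 0 in all libraries. Stromal markers summed to 17.8 to 31.6 FPKM in Ctrl and 15.9 to 23.0 in ZA, lower on average for all 4. The limma test covered all 8 macrophage and all 4 stromal markers, 6 of 9 neutrophil, 2 of 5 osteoclast and 1 of 4 erythroid markers. It covered no B or T cell marker, because these were below the filter on level. No tested marker passed at an adjusted p under 0.05 (3 macrophage, 4 neutrophil, 1 stromal and 1 osteoclast marker had an unadjusted p under 0.05, and voom called 2 macrophage markers). The part of these low-level markers in the differences of the mitochondrial genes was not tested. In bulk RNA, fewer mitochondrial transcripts per cell and fewer cells rich in them cannot be told apart.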

How the data were processed

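RNA of 3 Ctrl and 3 ZA libraries was sequenced as 150-base pairs, and groups and replicate numbers come from the labels. The methods name a VAHTS library kit, and the labels also a SMARTER kit. The authors deposited a table of FPKM values (fragments per length and library total). The build is mm9 by the submitters' processing notes, and the aligner, counter and annotation are not given in the sources used here. Only 11 of 35434 rows of the deposited table held their separators. In 20165 rows only 1 reading as 6 values was possible. Another 15180 were cut where all 6 values are whole numbers of fragments for one gene length and the 6 library totals. These totals were inferred from ratios of values in the rows with only 1 reading. The procedure was tested on simulated rows. This restored 35345 rows, 99.7% of the fragments of each library. The 89 rows left out had a mean FPKM under 1 in their best reading, but which reading is right was not settled for them.

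Genes averaging 1 FPKM or more were compared as log2(FPKM + 1), a scale that understates changes of low genes, with limma 3.58.1 in R 4.3.3 (lmFit, eBayes with a trend). The same fit was also run on simulated data. Shares used the recovered fragments and exact permutation tests in SciPy 1.17.1. Sequences are from GENCODE M21 transcripts on GRCm38. No 2 libraries of a group were near-identical. Besides the members, the text names the 2 genes per list whose moderated statistic was largest and the 5 genes with the most similar profile. Members and lists were chosen with earlier results of these data known. The alternatives were another pseudocount, filters, scalings, variance prior, voom on fragments, a replicate block and leaving out each library.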

Additional observations from a re-analysis of the deposited data

How the results depend on the processing

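All called members kept their direction under every alternative, but their calls did not all hold. With no filter on low values (19291 genes) 1 gene and 0 members passed (1704 genes and 3 members at an unadjusted p under 0.05), with log2 fold changes of -0.30 for CYTB, -0.27 for COX2 and -1.11 for COX3 at limma adjusted p-values of 0.23, 0.227 and 0.15. With a variance prior without a trend 1 gene passed, COX3, while CYTB (-0.30) and COX2 (-0.27) had limma adjusted p-values of 0.0995 and 0.111. Quantile normalization called 20 genes and voom on recovered fragments 131, each with 3 members. Centring each library on its median changed the split of calls from 20 higher and 16 lower to 11 higher and 18 lower, again with 3 members. With 1 library left out, 0 to 25 genes and 0 to 2 members were called: 1 gene without Ctrl replicate 1, 1 without Ctrl replicate 2, 6 without Ctrl replicate 3, 25 without ZA replicate 1, 0 without ZA replicate 2 (973 genes and 3 members at an unadjusted p under 0.05) and 4 without ZA replicate 3. The cause of these differences was not tested. Without single libraries the log2 fold changes ranged from -0.32 to -0.25 for CYTB, -0.30 to -0.23 for COX2, -1.16 to -1.01 for COX3, -0.73 to -0.29 for ATP6 and -0.16 to 0.084 for ATP8. ATP8 changed sign without Ctrl replicate 1 (0.047), Ctrl replicate 3 (0.027), ZA replicate 1 (0.014) and ZA replicate 2 (0.084), and the difference in its share, 0.000256 percentage points, changed sign without Ctrl replicate 2 (-6.05e-05) and ZA replicate 3 (-0.000298), with leave-one-out values up to 0.00061. The ATP8 row did not enter the test with a mean FPKM of at least 5. The other shares and the ratio of COX3 to the other members kept their direction under 7 alternatives each.

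A fit with a replicate block called 78 genes and 3 members. Same-numbered libraries deviated together with correlations of 0.284, 0.0393 and 0.28, not all above 0.1, and every library correlated best with its own number, a hint from the data and not from the design.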
